A study of Mus musculus with 6 samples.

Results

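The cytosolic ribosomal protein genes were 89 genes, 36 of the small (40S) and 53 of the large (60S) ribosomal subunit, among 61880 rows of the deposited count matrix. They were taken by symbol, as rows named *Rpl* or *Rps* with a number and at most 1 of the letters a, x and l after it (a further number allowed), *Rpsa* or *Rplp0* to *Rplp2*, with pseudogene symbols that end in -ps left out. Each gene was read in 2 ways, from the row that carries its symbol and from the sum of all rows with the same assembled locus number. RNA was measured in mammary epithelial cells isolated from the inguinal glands of female FVB/NJ mice in puberty, aged 6 to 8 weeks. The 3 *fat-1* samples came from mice with the *fat-1* transgene, a *C. elegans* enzyme that converts *n*-6 to *n*-3 PUFA throughout the body, and the 3 WT samples from wildtype mice. Both genotypes were kept for life on their parents' modified AIN93G diet, with safflower oil at 10% of its weight and 22% of its kcal, so that genotype was the labelled difference. Each sample was a pool of mice, called a pool here, and the methods give the number of mice in it in more than 1 way. The comparison answers whether the genes of the ribosome were expressed at another level in the *fat-1* samples.

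Ribosomal proteins assemble with ribosomal RNA into the subunits that translate mRNA, and a cell needs them in nearly equal amounts. Their mRNAs are among the most abundant in dividing cells. Most begin with a run of pyrimidines at the 5′ end, the TOP motif, through which the mTOR pathway and LARP1 set their translation, and in mouse many have processed pseudogenes of nearly the same sequence. The duct epithelium of the mammary gland grows fast in puberty.

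Some of these genes have a long run of pyrimidines near the annotated start and others only a short one, a sequence feature that the symbol rule did not use. RefSeq promoters (GRCm38.p6) were matched for 64 of the 89 genes, with 76 promoters. The 30 bases around the start are given here for 12 of the genes described below, chosen to show both long and short runs, 15 on each side, 5′ to 3′ on the strand of the gene, with the longest run of C and T in capitals.
Rps2 (chr17:24720048-24720077, plus strand): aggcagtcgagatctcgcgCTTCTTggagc
Rpl15 (chr14:18270972-18271001, minus strand): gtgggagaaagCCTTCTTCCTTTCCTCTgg
Rpl7a (chr2:26910792-26910821, plus strand): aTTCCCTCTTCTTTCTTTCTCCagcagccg
Rplp2 (chr7:141447636-141447665, plus strand): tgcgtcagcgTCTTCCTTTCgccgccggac
Rps27 (chr3:90213634-90213663, minus strand): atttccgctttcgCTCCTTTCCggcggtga
Rps27l (chr9:66946071-66946100, plus strand): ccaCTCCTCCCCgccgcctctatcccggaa
Rpl22l1 (chr3:28805493-28805522, plus strand): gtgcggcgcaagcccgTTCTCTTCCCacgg
Rps25 (chr9:44407699-44407728, plus strand): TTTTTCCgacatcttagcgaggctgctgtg
Rplp0 (chr5:115559452-115559481, plus strand): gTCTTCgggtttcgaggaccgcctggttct
Rpl5 (chr5:107900513-107900542, plus strand): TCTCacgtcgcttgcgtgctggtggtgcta
Rpl11 (chr4:136053379-136053408, minus strand): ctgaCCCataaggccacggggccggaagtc
Rps3a1 (chr3:86142654-86142683, minus strand): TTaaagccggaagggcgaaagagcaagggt
The run had 21 bases in *Rpl7a* and 17 in *Rpl15*, but 7 in *Rps25*, 6 in *Rps2*, 3 in *Rpl11* and 2 in *Rps3a1*. A run of 8 or more C or T was found in 38.2% of the windows of ribosomal protein genes and in 12.0% of all 32851 RefSeq windows of the same length, and a run of 5 or more in 67.1% and 47.3%. In the 300 bases of the promoter, the letters CCGGAAG, part of the site of GABP and other ETS factors, stood on either strand in 35.5% of these promoters and in 8.86% of all. The letters AAGATGG, part of the YY1 site, stood in 15.8% and 6.34%. The length of 8 was chosen after several lengths had been counted. The sequences are of the reference genome, not of FVB/NJ mice. The run could lie anywhere in the window, and where the transcripts start in these cells was not tested. A short run here therefore does not show that an mRNA lacks the TOP motif.

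As locus sums, the 89 genes together took 4.51% ± 0.158 of the normalized counts in the *fat-1* pools and 4.43% ± 0.253 in the WT pools (SD, n = 3 each). The sums were 43950, 46935 and 44534 CPM (counts scaled to the TMM-normalized library total) in *fat-1* pools 1 to 3, and 43812, 42042 and 47027 CPM in WT pools 1 to 3. The genotypes overlapped, since the highest and the lowest sum were both WT pools. The log2 ratio of the means was 0.03, and it was 0.07 without WT pool 3 and -0.01 without WT pool 2. Small subunit genes summed to 19420 ± 858 CPM in the *fat-1* pools and 19118 ± 1279 in the WT pools, and large subunit genes to 25720 ± 725 and 25176 ± 1253 CPM. In symbol rows the small subunit mean was the lower in the *fat-1* pools, at 17431 ± 749 against 17795 ± 1407 CPM. Large subunit rows had 23245 ± 584 and 22677 ± 950 CPM. All symbol rows together took 4.07% and 4.05% of the normalized counts. In bulk samples, more cells of a type and more RNA per cell cannot be told apart.

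**Figure D1:**
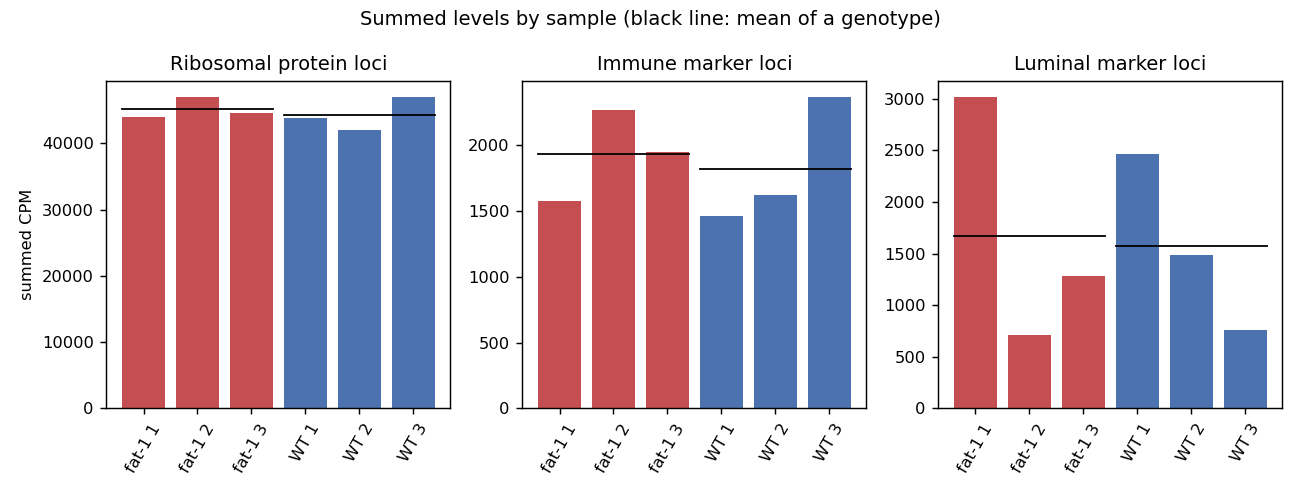
Summed CPM of the ribosomal protein loci (left), of 13 immune marker loci (middle) and of 8 luminal marker loci (right) in each sample, with *fat-1* pools in red, WT pools in blue and a black line at the mean of each genotype. The ribosomal protein sum was highest in *fat-1* pool 2 and WT pool 3, in both of which the immune markers were also highest and the luminal markers lowest.

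The same samples were highest or lowest for most ribosomal protein genes, across both genotypes. Of the 88 loci tested, 42 were highest in *fat-1* pool 2 and 32 in WT pool 3, and 61 were lowest in WT pool 2. Of the 78 loci with a mean of 100 CPM or more, 55 had *fat-1* pool 2 and WT pool 3 as their highest samples. Immune, luminal and basal markers also stood apart in these 2 samples. WT pool 2 lay between the others for every marker sum except that of the adipocyte markers, where it was highest. As locus sums, the measure of all marker sums here, the 13 immune markers came to 2269 CPM in *fat-1* pool 2 and 2368 CPM in WT pool 3. The other samples had 1462 to 1945 CPM. In the rows with the marker symbols alone, the sums were 733 and 764 CPM, against 280 to 652 CPM. Each of the 13 was above 0 in both *fat-1* pool 2 and WT pool 3. *Cd79a*, a B cell receptor subunit, was at 507 and 521 CPM in these samples and at 266 to 408 CPM in the others. The 8 luminal markers, led by the keratin *Krt8*, summed to 716 and 761 CPM in the same samples and to between 1280 and 3019 CPM in the others, and the 7 basal markers to 155 and 149 CPM against 259 to 607 CPM. Their part in the ribosomal protein levels was not tested. Fibroblast markers summed to 1464 to 4840 CPM and endothelial markers to 152 to 217 CPM, and neither was highest in both of these samples or apart between the genotypes. The 4 adipocyte markers did lie apart between the genotypes, at 94.0, 107 and 83.9 CPM in the *fat-1* pools and 112, 126 and 113 CPM in the WT pools. Nearly all of this was *Fabp4*, a fatty acid binding protein, the 1 of the 4 past the unadjusted threshold (log2 fold change -0.31, adjusted *p* = 1.00), while the adipocyte hormone *Adipoq* had a mean of 0.342 CPM. The part of these markers was not tested either. The epithelial markers that the label calls for were present in every sample, beside markers of other cell types. In *fat-1* pool 1 the luminal sum was above the fibroblast sum, and in every other sample the fibroblast sum was the higher.

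With edgeR's quasi-likelihood test and Benjamini–Hochberg adjustment over all features, 0 of the 88 ribosomal protein rows tested and 0 of the 88 locus sums reached an adjusted *p*-value of 0.05 or less, and the adjusted *p*-value was 1.00 for every one of them. The test called 0 of all 30683 rows and 0 of all 24061 loci, so this count does not set the ribosomal protein genes apart. At an unadjusted *p*-value at or under 0.05 there were 0 ribosomal protein rows, where the share over all rows was 2.21%. There was 1 locus sum (1.14% of the 88), that of *Rps2*, where the share over all loci was also 1.14%. On the adjusted scale, edgeR's exact test called 32 rows and 6 loci and DESeq2 93 rows and 8 loci, with 0 ribosomal protein genes among them. At the unadjusted threshold the exact test gave 0 ribosomal protein rows and 0 loci, and DESeq2 gave 1 row (*Rpl17*) and 2 loci (*Rps2* and *Rpl17*). Over all features at that threshold, the exact test called 614 rows and 257 loci, and DESeq2 928 rows and 359 loci. The *fat-1* and WT values did not overlap for 1 row, *Rps2*, against 5.26% of all rows, and for 2 locus sums, *Rps2* and *Rpl17*, against 4.15% of all loci. *Rpl10l*, a testis paralog of *Rpl10*, had a count of 0 in all 6 samples and was not tested.

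The differences were small. The median log2 fold change of *fat-1* relative to WT was 0.03 over the ribosomal protein locus sums and 0.00 over all loci, and without regard to sign the median was 0.04 for the ribosomal protein loci and 0.11 for all. All loci were not matched to them for level. Of the 78 loci at 100 CPM or more, 71 had a log2 fold change closer to 0 than 0.1. The range was -0.20 to 0.18, and the median standard error 0.08. The fold change was above 0 for 71 of 88 loci and below 0 for 17, against 12178 above and 11883 below over all loci. This count turned with single samples. It was 38 above and 50 below without *fat-1* pool 2, the same 38 and 50 without WT pool 2, and 81 and 7 without WT pool 3. Other scalings of the libraries left 71 or 72 above 0. Beside *Rps2* and *Rpl17*, described further on, the fold changes farthest from 0 at this level were those of *Rpl41* (-0.16, SE 0.09), *Rpl15* (0.15, SE 0.19), *Rpl7a* (0.12, SE 0.10), *Rpl21* (0.12, SE 0.14) and *Rps27* (0.11, SE 0.14), all large subunit proteins but the last. None of these was past the unadjusted threshold. The symbol rows had 63 genes above 0 and 25 below, with a median of 0.03.

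**Figure D2:**
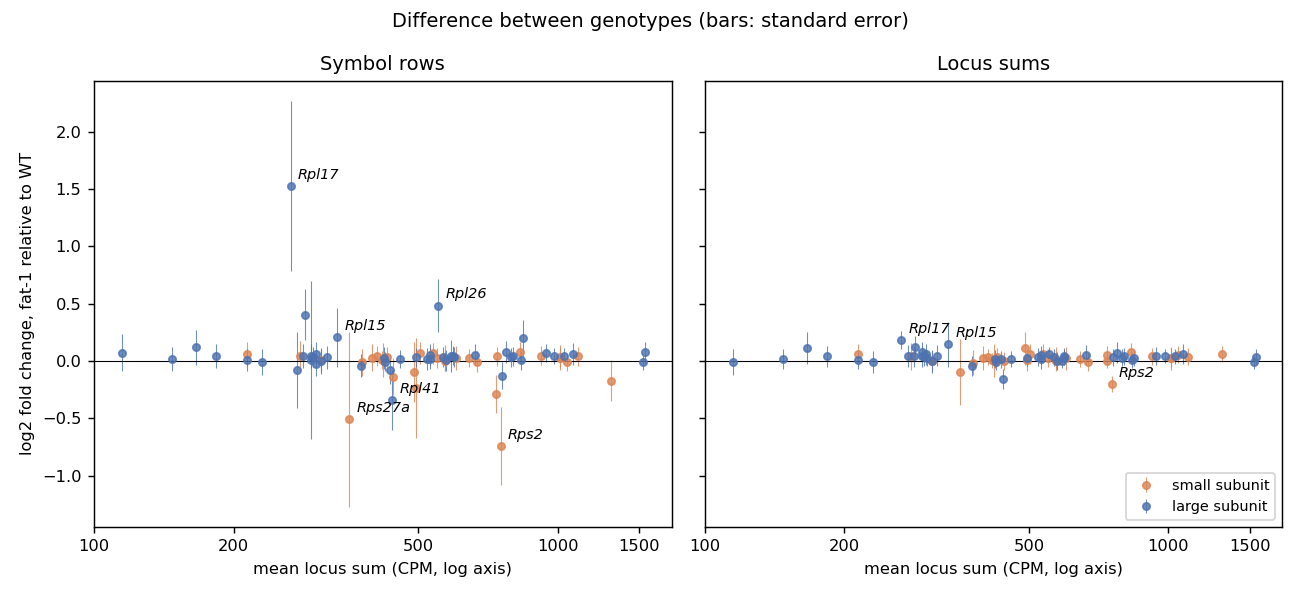
Log2 fold change of *fat-1* relative to WT for 78 ribosomal protein genes with a mean locus sum of 100 CPM or more, against that mean (log axis), from the row with the symbol (left) and from the locus sum (right). Orange points are small and blue points large subunit genes, and bars are the standard error. The locus sums lay between -0.20 and 0.18. Among the symbol rows, *Rpl17* (1.53, from 0.715 to 6.46 CPM) and *Rps2* (-0.74) were farthest from 0, followed by *Rps27a* (-0.51) and *Rpl26* (0.48).

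The P stalk, which recruits elongation factors to the ribosome, had small differences between genotypes relative to their errors. *Rplp0*, its anchor on the large subunit, had 1519 ± 21.6 CPM in the *fat-1* and 1532 ± 52.5 CPM in the WT pools, a log2 fold change of -0.01 (SE 0.06). *Rplp1* was at 749, 831 and 828 CPM in the *fat-1* pools and at 788, 761 and 813 CPM in the WT pools, which overlapped. *Rplp2*, whose start is shown above, was at 425 ± 16.8 and 420 ± 31.1 CPM, which is 0.02 as a log2 fold change (SE 0.08). The 5S RNP proteins, which with the 5S RNA restrain MDM2 and so stabilise p53 when assembly fails, had differences of a similar size. *Rpl5* had a log2 fold change of 0.04 (SE 0.06), from 1047 ± 43.1 against 1018 ± 24.7 CPM. *Rpl11* had one of 0.03 (SE 0.07), from 603 ± 7.50 against 590 ± 31.4 CPM.

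Per kilobase of the annotated transcript, the 78 loci ranged from 87.9 to 1593 CPM per kb, an 18.1-fold range, with a median of 762 CPM per kb for the 31 small subunit genes and 615 for the 47 large subunit genes. *Rplp1* was highest at 1593 CPM per kb, followed by *Rps27* at 1422. Among genes with the most counts, *Rps3a1* had 1130 CPM per kb, *Rplp0* 1124, *Rpl13a* 1029, *Rpl4* 1006 and *Rpsa*, the laminin receptor precursor, 816. *Rps15a* and *Rps20*, at 112 and 113 CPM per kb, were named after their values were seen, and their annotated transcripts have 5130 and 3706 bases. The transcript in use was not tested. The other 11 genes had means under 100 CPM. They were 6 of the 7 paralogs listed below, all but *Rpl7l1*, and 5 genes annotated as processed pseudogenes despite their symbols, of which *Rpl6l* was highest at 74.4 CPM and *Rps12l1* lowest at 0.196 CPM.

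**Figure D3:**
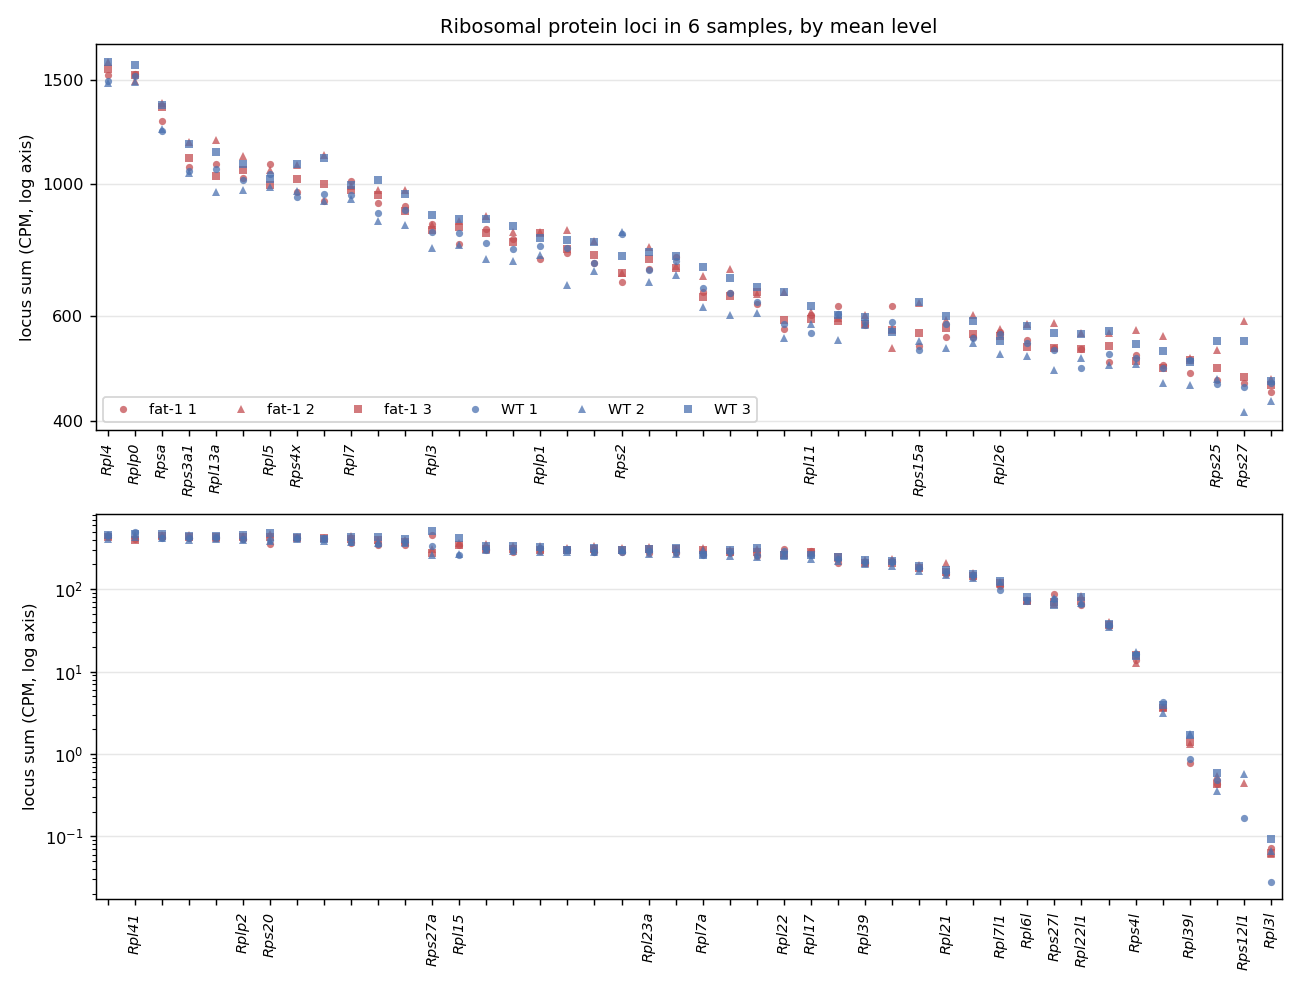
Locus sum in CPM (log axis) of the 88 tested ribosomal protein genes in each of 6 samples, ordered by mean level over both panels and labelled where named in the text, with *fat-1* pools in red and WT pools in blue (circle, triangle and square for samples 1, 2 and 3). Values of 0, as *Rps12l1* had in 3 samples, are not drawn. In most genes, *fat-1* pool 2 (red triangle) and WT pool 3 (blue square) lay on top and WT pool 2 (blue triangle) at the bottom.

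Paralogs can replace their parent protein in some ribosomes, and their share of the parent did not separate the genotypes. Per kilobase, *Rpl22l1* stood at 97.6% ± 18.3 of *Rpl22* in the *fat-1* pools and 99.3% ± 14.8 in the WT pools, with 131 and 134 CPM per kb for paralog and parent. This near equality rests on the long annotated *Rpl22* transcript of 2048 bases, since in counts alone the paralog had 26.3% and 26.8% of its parent. *Rps27l*, a p53 target, stood at 10.3% ± 2.54 of *Rps27* per kilobase in the *fat-1* pools and at 11.0% ± 2.53 in the WT pools. *Rpl7l1* stood at 10.3% ± 0.604 and 10.6% ± 1.27 of *Rpl7*. The other paralogs were scarce. *Rps4l*, annotated as a transcribed processed pseudogene, stood at 1.43% and 1.69% of *Rps4x*, and *Rpl39l*, a testis paralog, at 0.605% and 0.755% of *Rpl39*. *Rpl3l*, the paralog of heart and skeletal muscle, had 0.0280 to 0.0924 CPM (6 to 19 counts) in the 6 samples, against 782 to 889 CPM for *Rpl3*. None of the 6 paralogs tested was past the unadjusted threshold in rows or in loci.

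The matrix divides many ribosomal protein genes over several rows. The loci of the 89 genes held 192 rows, of which 37 had no symbol and 66 had another symbol, 33 of these being small RNAs of introns (*Snord*, *Snora* or *Mir*). In 39 genes the locus had no other row. In 37 it had a row without a symbol, and how the counts fell between that row and the row with the symbol varied from sample to sample. In 15 genes, the share of the locus that the symbol row held varied by more than 20 percentage points between samples. For these genes the median coefficient of variation (CV, the SD divided by the mean, over 6 samples) was 22.6% in the symbol row and 5.04% in the locus sum, and the CV of the locus sum was the lower for all 15. Choosing genes by a varying share itself favours a larger CV in the row. In other divided genes the locus sum could vary more. *Rpl8*, named after its values were seen, had a CV of 4.61% in the row and 5.79% in the locus sum. The rows without a symbol summed to 4056, 4637 and 4099 CPM in the *fat-1* pools and to 3694, 3330 and 3595 CPM in the WT pools, which did not overlap, while the locus sums did. The limits of 20 points and of 100 CPM were chosen after the values were seen.

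*Rps25* is an example of the division, named after its values were seen. It encodes a small subunit protein that some viral internal ribosome entry sites need. Its symbol row had 472, 231 and 207 CPM in the *fat-1* pools and 266, 262 and 545 CPM in the WT pools. Its locus sum had 470, 526 and 492 CPM against 463, 470 and 546 CPM. The row without a symbol had a count of 0 in *fat-1* pool 1 and WT pool 3, and between 41971 and 63296 counts in the others, so that the row ranged over 2.63-fold and the locus over 1.18-fold. *Rpl23a*, a protein at the exit of the nascent chain, had 29.0, 38.2 and 173 CPM in its row in the *fat-1* pools and 87.5, 81.7 and 69.1 CPM in the WT pools. Its locus sum had 279, 324 and 304 CPM against 287, 268 and 304 CPM, so that a 5.97-fold range became one of 1.21-fold. The fold change of its row was 0.01 with all samples and -1.24 without *fat-1* pool 3, which was past the unadjusted threshold. *Rpl26* and *Rpl41* had log2 fold changes of 0.48 and -0.34 in the row, and of 0.06 and -0.16 in the locus sum.

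**Figure D4:**
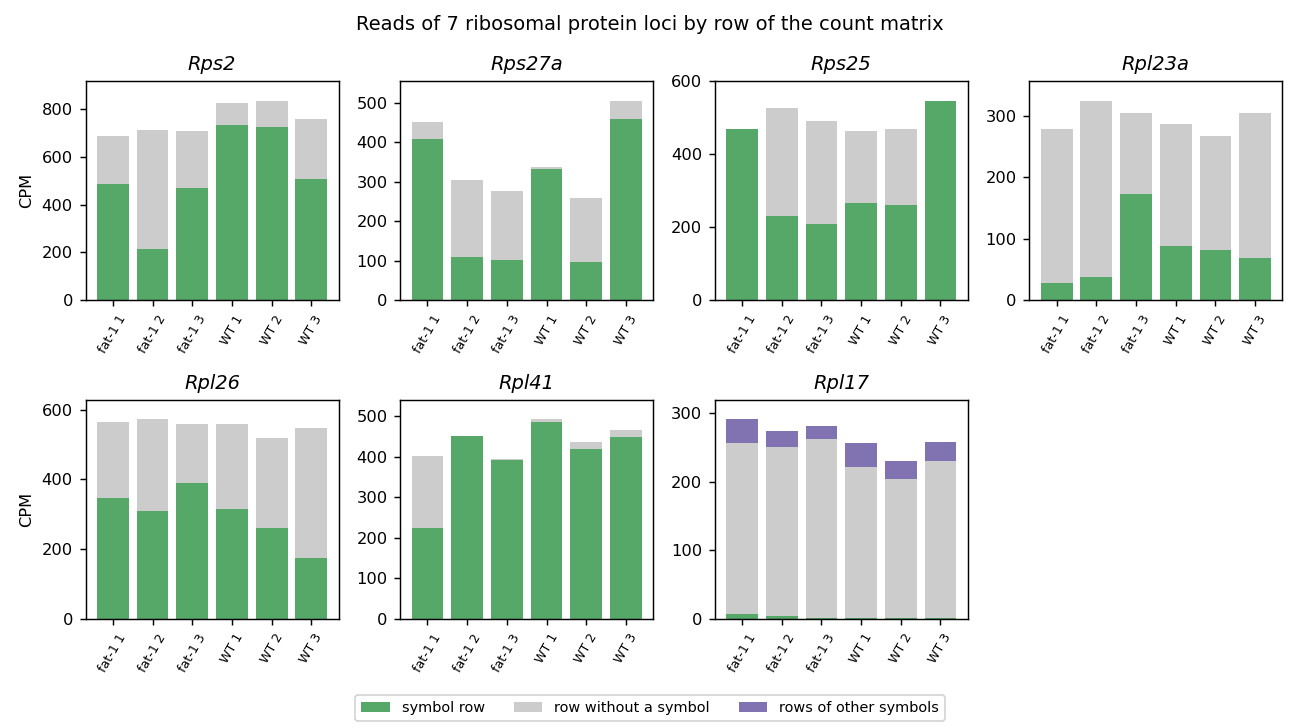
CPM of 7 ribosomal protein loci in each sample, divided into the row with the gene symbol (green), the row without a symbol (grey) and rows of other symbols (purple), stacked to the locus sum. In *Rps25* the green part ranged over 2.63-fold between samples and the whole bar over 1.18-fold, whereas in *Rps27a* the whole bar also varied, by 1.95-fold.

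Over all tested features the median CV was 26.0% for rows and 21.2% for loci, and over the ribosomal protein genes it was lower, 6.48% in symbol rows and 5.69% in locus sums. Most of these genes had 100 CPM or more, and features of a similar level were not compared. Whether they were steadier than other abundant genes was therefore not tested. A CV over 15% was found in 19 rows and 6 locus sums of ribosomal protein genes. Of these 6, *Rps27a* (28.1%) and *Rpl15* (18.2%) had 100 CPM or more. The summed level itself had a CV of 4.34%. As a share of the sum over the 78 loci, the median CV fell from 5.47% to 3.05%, and 63 of the 78 were steadier as a share than in CPM. Dividing by their own sum removes what the loci shared in a sample, so part of this fall was built in. Other sets of genes were not treated in this way. The genes that varied most as shares were *Rps27a* (26.2%), *Rpl15* (14.7%) and *Rps2* (11.5%).

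**Figure D5:**
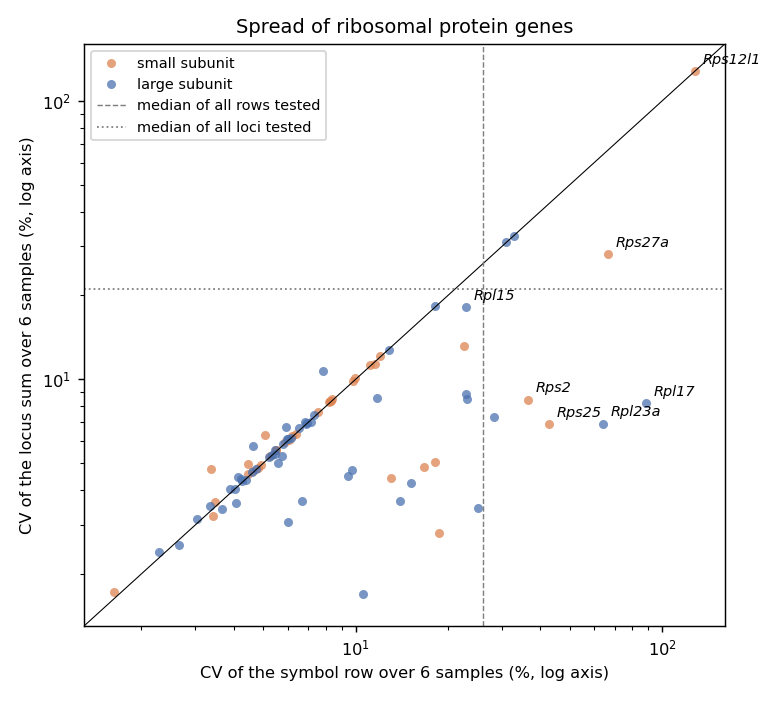
CV over 6 samples of the locus sum (vertical) against that of the symbol row (horizontal) for the 88 tested ribosomal protein genes, both on log axes, with the line of equality and the medians of all rows (dashed) and all loci (dotted). Points far below the line, such as *Rpl23a*, *Rps25* and *Rpl17*, are genes whose locus sums varied less than their rows, and *Rps27a* and *Rpl15* stayed above 15% on both axes.

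*Rps2* was the one ribosomal protein gene past the unadjusted threshold. It encodes a protein at the mRNA entrance of the 40S subunit and lies at chr17:24718116-24721929 on the plus strand (GRCm38, GENCODE). Its locus sum was 685, 710 and 709 CPM in the *fat-1* pools and 827, 833 and 759 CPM in the WT pools, so that every *fat-1* pool lay below every WT pool. The log2 fold change was -0.20 (SE 0.07), past the unadjusted threshold of the quasi-likelihood test, with an adjusted *p* = 1.00. In the row alone it was -0.74 (SE 0.34) and not past that threshold, with 489, 215 and 468 against 732, 724 and 507 CPM. Reads of this gene can also be counted in its pseudogenes. Their rows ran the other way and summed to 221, 225 and 257 CPM in the *fat-1* pools and to 169, 175 and 224 CPM in the WT pools. With these rows added, the sum was 904, 935 and 966 CPM against 996, 1006 and 985 CPM, and the log2 fold change was -0.09, not past the threshold. edgeR's exact test gave an unadjusted *p*-value of 0.201 for the locus sum. With *fat-1* pool 1, 2 or 3 or WT pool 1 or 2 left out, the log2 fold change was between -0.21 and -0.17 and the call was lost, whereas without WT pool 3 it was kept.

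*Rpl17*, a protein of the exit tunnel of the 60S subunit, was the other gene whose locus sums did not overlap. It had 291, 275 and 281 CPM in the *fat-1* pools and 257, 230 and 259 CPM in the WT pools, a log2 fold change of 0.18 (SE 0.08) that was not past the unadjusted threshold. Its symbol row held only 0.255% to 2.21% of the locus, 0.715 to 6.46 CPM, so that the 1.53 of the row (SE 0.74) rests on a small part of the counts of the locus. With the rows of the other symbols of the locus left out, the log2 fold change was 0.23 and past it. The pseudogene rows named for *Rpl17* had 439 to 506 CPM in the 6 samples. With them added, the samples had 728, 758 and 725 against 726, 734 and 759 CPM, the log2 fold change was -0.01 and the CV fell from 8.21% to 2.16%.

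*Rps27a*, which encodes a fusion of ubiquitin with a small subunit protein (chr11:29545846-29548109, minus strand), varied most among the genes at 100 CPM or more, and its genotypes overlapped. Its locus sum was 451, 303 and 277 CPM in the *fat-1* pools and 338, 259 and 505 CPM in the WT pools. The rows of its pseudogenes ran against this, with 18.9, 102 and 92.6 CPM and 60.8, 90.0 and 22.0 CPM. With them added, the CV fell from 28.1% to 15.9%. *Rpl15*, a large subunit protein (chr14:18267823-18271391, minus strand), had 347, 368 and 341 CPM in the *fat-1* pools and 261, 271 and 423 CPM in the WT pools. The 3 *fat-1* pools lay between the WT pools, and without WT pool 3 its log2 fold change of 0.15, not past the unadjusted threshold, became 0.42 and passed it. Its pseudogene rows were highest in WT pools 1 and 2, at 192 and 177 CPM against 120 to 158 CPM, and with them added the CV fell from 18.2% to 7.47%. Adding pseudogene rows did not steady every gene. For *Rpl28*, named after its values were seen, the CV rose from 3.16% to 6.75% and the log2 fold change went from 0.01 to 0.11. The CV of *Rpl30*, named likewise, rose from 4.05% to 4.74%. In all, 279 of 319 rows with a ribosomal protein pseudogene symbol had any count, and they summed to 3157 ± 155 CPM in the *fat-1* and 3077 ± 133 CPM in the WT pools. How reads were shared between genes and pseudogenes of nearly the same sequence is not given in the sources used here.

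Genes next to the ribosomal proteins in the pathway had small differences as well. Among cytosolic ribosomal proteins whose symbols the rule leaves out, log2 fold changes were 0.03 (*Fau*, a ubiquitin-like fusion), 0.01 (*Rack1*, the scaffold on the 40S head) and -0.01 (*Rpl36al*) in locus sums, each with a standard error of 0.06 to 0.11. Of 15 elongation factors and other TOP mRNAs, 0 passed the unadjusted threshold in rows or loci, and their median log2 fold change in loci was 0.02. *Eef1a1*, which delivers aminoacyl-tRNA, was at 7296 ± 115 CPM in the *fat-1* and 7284 ± 236 CPM in the WT pools. In the 35 ribosome biogenesis genes the median was 0.03 with 0 past that threshold, and nucleolin (*Ncl*) was at 1189 ± 40.8 and 1181 ± 119 CPM. The 11 genes of RNA polymerase I, the 5 chaperones of ribosomal proteins and the 17 regulators had 0 past it in rows or in loci, with medians of 0.02, -0.03 and 0.01 in loci. *Larp1*, the TOP mRNA binding protein, was at 381 ± 12.6 and 373 ± 20.5 CPM, and *Mtor*, the kinase upstream of it, at 58.1 ± 1.13 and 55.9 ± 0.649 CPM.

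The ribosome of the mitochondrion is built from other nuclear genes, and 78 of them were tested. In rows, 1 passed the unadjusted threshold (*Mrps31*, lower in the *fat-1* pools, log2 fold change -0.68), and in loci 0 did, where *Mrps31* had a log2 fold change of -0.10. Their median log2 fold change in loci was -0.04 and that of the cytosolic genes 0.03, a difference for which no test was made. As locus sums, their summed level was 3223 to 3798 CPM in the *fat-1* pools and 3392 to 3778 CPM in the WT pools. It was highest in *fat-1* pool 3, and not in the samples where the cytosolic genes were highest. In symbol rows the sum was 1256 to 1360 CPM in the *fat-1* pools and 1327 to 1390 CPM in the WT pools. That sum was highest in WT pool 3, where the cytosolic genes were also high.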

How the data were processed

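RNA from 3 pooled *fat-1* and 3 pooled WT samples was sequenced by the authors as paired-end reads, mapped to GRCm38 with HISAT2 and quantified with StringTie. They deposited 1 matrix of estimated counts, as whole numbers without normalization. The StringTie version, the annotation, the use of strand and the step from coverage to counts are not given in the sources used here, so counts of genes that overlap or share sequence are uncertain. Counts summed to between 204539059 and 232148824 per sample. Counting error and the spread between samples were not separated, and the scarcest genes rest on few counts. Since nothing ties a sample to single mice, *p*-values measure the spread between pools.

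The 61880 rows were also summed by StringTie locus number (53912 loci). Rows and loci were each tested in R 4.3.3 with edgeR 4.0.16, by its quasi-likelihood test (genotype as the only term, filterByExpr, TMM, library totals taken again after the filter, Benjamini–Hochberg adjustment, threshold 0.05). The choice of totals was made after both were seen, and changed the count of all rows at the unadjusted threshold by 1. Standard errors were derived from the fold change and its F statistic, and CPM uses the TMM-normalized totals. The fits were run on simulated counts with known changes and with less spread between samples than these data had over all features. That run does not show how often changes of the size seen here would be called. DESeq2 1.42.0, edgeR's exact test, the older quasi-likelihood fit, other scalings and filters, left-out samples and other locus sums were alternatives, and adding the pseudogene rows was chosen after seeing the data.

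Genes were matched by symbol to the GENCODE annotation of GRCm38 for positions and for the length of the principal coding transcript. The genes named were those with the highest and lowest levels, any past the unadjusted threshold, those with the largest fold changes, paralogs with their parents, P stalk and 5S RNP genes, those with the smallest share of a locus in the symbol row or with the largest difference between row and locus, the leading genes of each list and the leading cell type markers, beside those said to be named after their values were seen. Some genes that these rules take are not reported here. The members and lists were chosen with earlier results of these data known. Summaries and plots used Python 3.11.15, numpy 2.4.6, pandas 2.3.3 and matplotlib 3.10.9.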

Additional observations from a re-analysis of the deposited data

How the results depend on the processing

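The number of ribosomal protein genes past the adjusted threshold was 0 in rows and in loci with every alternative run. The numbers at the unadjusted threshold, 0 rows and 1 locus, were small and changed with single genes. With DESeq2 they were 1 row and 2 loci, and with edgeR's exact test 0 loci. With the replicate number as a block they were 1 row (*Rps12l1*) and 0 loci, without *Rps2*, where 784 rows and 376 loci were called over all features. The correlations of same-numbered samples, 0.471, -0.0900 and 0.0664, did not show that the numbers pair the samples. Leaving out 1 sample gave between 0 and 2 rows, and between 0 and 2 loci. The genes called were *Rpl6* in rows without *fat-1* sample 1, *Rpl17* and *Rpl23a* in rows without *fat-1* sample 3, *Rpl26* in rows without WT sample 1, *Rpl15* in rows and *Rpl15* with *Rps2* in loci without WT sample 3, and no others. Over all features, the fits without 1 sample called 635 to 986 rows and 204 to 542 loci at the unadjusted threshold. Without the rows of other symbols there were 2 ribosomal protein loci, and with pseudogene rows added, an alternative chosen after seeing the data, 0. The numbers over all loci were 275 and 264. The row of *Rpl23a* turned from 0.01 to -1.24 without *fat-1* sample 3, and ranged up to 0.41 with the other samples left out. The cause was not tested. Over 756 alternative fold changes of 27 named genes, 733 kept their side of the unadjusted threshold and, where uncalled, stayed within 1 standard error. Of the others, 8 lost a call, 7 gained one, 7 uncalled ones moved further, and 1, the row of *Rpl23a*, was called with the other sign.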
